A study of Rattus norvegicus with 13 samples.

Results

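The genes described here encode subunits of the ionotropic glutamate receptors of the AMPA and NMDA type, together with the AMPA receptor auxiliary subunit stargazin. Of 8 gene symbols chosen for this group (Gria1, Gria2, Gria3, Gria4, Cacng2, Grin1, Grin2a and Grin2b), 7 were matched to a row of the expression table annotated with that symbol alone, out of 22093 genes so annotated. Each had a single such row. The row that carries Gria2 is annotated with 2 symbols, so no value is given for it. All 7 matched genes passed the filter on low signal (a mean over the arrays at or above 6.58 on the log2 scale, the median of all rows) and were among the 16033 genes tested.

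AMPA and NMDA receptors are ligand-gated channels that open when glutamate binds. AMPA receptors are tetramers of GluA subunits and carry the fast excitatory current at most central synapses, and their auxiliary subunits govern trafficking and gating. NMDA receptors need glutamate, a co-agonist such as glycine or D-serine, and depolarization to open, admit calcium, and combine the obligatory GluN1 subunit with GluN2 subunits that set their kinetics. In the hypothalamus glutamatergic input reaches, among others, the neurons of the arcuate nucleus that control feeding.

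RNA came from the micro-dissected hypothalamus of male Sprague-Dawley rats aged 14 to 15 weeks that had eaten 1 of 3 diets freely for 2 months, and the comparisons address how the hypothalamic transcriptome differs with the amount and kind of dietary oil. The low-fat diet supplied 16% of energy as soybean oil (4 arrays), the flaxseed diet 35% as flaxseed oil, a source of alpha-linolenic acid (omega-3; 4 arrays), and the safflower diet 35% as safflower oil, a source of linoleic acid (omega-6; 5 arrays). The 3 diets thus differ in oil type and in the amount of oil between low-fat and high-fat. The labels do not state whether an array held RNA of a single rat, so p-values measure the spread between these arrays. In whole tissue, fewer cells of a type and less RNA per cell cannot be told apart.

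Values are log2 signals after robust multi-array averaging (RMA), so a difference of 1 is a doubling, and levels of different genes are not compared because probes differ in response. All 13 genes listed as markers of the hypothalamus, among them Nkx2-1, Sim1, Agrp, Pomc, Hcrt and Pmch, passed the signal filter. So did 16033 of all 22093 genes and all 7 listed markers of the thalamus, so passing does not tell these tissues apart. Some arrays stood apart. The fifth safflower array had a mean of 9.33 over the 5 tested markers of cortex and hippocampus, against 8.21 to 8.35 on the other safflower arrays and 8.14 to 8.58 on the low-fat arrays. The third low-fat array had a mean of 9.69 over the 5 tested skeletal muscle genes, against 7.77 to 8.05 on the other low-fat arrays. The mean over the 3 tested pituitary genes was 7.02, 7.34 and 6.94 on safflower arrays 1, 2 and 5, against 8.05 and 8.08 on safflower arrays 3 and 4, 7.94 to 8.37 on the low-fat arrays and 8.15 to 8.34 on the flaxseed arrays. Signals of olfactory receptor genes, taken as background, had a median of 5.03 ± 0.08 (SD, n = 4) with low-fat, 4.87 ± 0.05 (SD, n = 4) with flaxseed and 4.75 ± 0.04 (SD, n = 5) with safflower, and the interquartile range over tested genes stood in the same order at 1.36 ± 0.03 (SD, n = 4), 1.46 ± 0.05 (SD, n = 4) and 1.58 ± 0.06 (SD, n = 5). Results under other scalings, and with the olfactory receptor median as a covariate, are given below.

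The RefSeq table of assembly GRCr8 held a promoter for 3 of the 8 genes. The 250 bases before the annotated start of these 3 genes are shown, and the stretches differ in base composition. Each is written 5′ to 3′ on the gene's strand, and capitals mark matches to any of 3 motifs on either strand. The first motif was the box bound by Sp1-type factors, spelled GGGCGG. The second was the core promoter element spelled TATAAA. The third was the half-site of the cyclic AMP response element, spelled TGACG.
Gria4 (chr8:10319882-10320131, minus strand): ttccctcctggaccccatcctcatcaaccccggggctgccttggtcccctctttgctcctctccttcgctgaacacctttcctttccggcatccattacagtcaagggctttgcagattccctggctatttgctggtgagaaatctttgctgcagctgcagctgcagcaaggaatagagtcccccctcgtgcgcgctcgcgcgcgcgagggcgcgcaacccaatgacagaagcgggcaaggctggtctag
Cacng2 (chr7:111577758-111578007, minus strand): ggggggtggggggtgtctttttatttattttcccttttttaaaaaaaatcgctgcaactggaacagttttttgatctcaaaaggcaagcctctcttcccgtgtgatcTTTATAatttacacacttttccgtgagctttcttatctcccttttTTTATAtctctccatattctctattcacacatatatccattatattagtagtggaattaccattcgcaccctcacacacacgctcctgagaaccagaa
Grin1 (chr3:28528755-28529004, minus strand): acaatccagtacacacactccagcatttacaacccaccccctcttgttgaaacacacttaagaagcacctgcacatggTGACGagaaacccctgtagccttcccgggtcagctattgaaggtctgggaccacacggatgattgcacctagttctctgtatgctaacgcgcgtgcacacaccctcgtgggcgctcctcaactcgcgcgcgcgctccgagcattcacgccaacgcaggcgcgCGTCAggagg
The Cacng2 stretch had a GC content of 38.4% with 5 CpG dinucleotides, the Gria4 stretch 59.6% with 14 and the Grin1 stretch 57.6% with 19, against a median of 51.2% and 5 CpGs over 33469 promoters of the same length. The TATA letters were found at 2 places in Cacng2, both on the opposite strand, and in 12.9% of all promoters. The letters of the half-site were found at 2 places in Grin1 and in 18.2% of all promoters. None of the 3 stretches held the Sp1-type box, which 30.5% of all promoters did.

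With the safflower diet, 6 of the 7 receptor genes rose against the low-fat diet and none fell, at a limma adjusted p under 0.05. In the same comparison 22.9% of all tested genes rose and 16.9% fell. All 7 log2 changes were above 0, as were 60.8% of those of all genes, and all 7 had an unadjusted p under 0.05, as did 51% of all genes. The 6 were Gria1, Gria3, Gria4, Cacng2, Grin1 and Grin2a, with log2 changes of 0.23 to 0.47, which are fold changes of 1.17 to 1.38. Grin2b had a log2 change of 0.37 and did not pass (limma adjusted p = 0.0597). The median log2 change of the 7 genes was 0.35, against 0.07 over all tested genes. After quantile normalization Gria3 alone passed, among 2326 of all 16033 genes, as it did after cyclic loess normalization, with 19.3% of all genes.

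Gria3, which encodes the AMPA subunit GluA3, had the highest log2 change of the 7. Its signal was 9.25, 9.29, 9.26 and 9.11 on the low-fat arrays, 9.35, 9.41, 9.37 and 9.43 on the flaxseed arrays and 9.72, 9.63, 9.66, 9.48 and 9.98 on the safflower arrays. All safflower arrays were above all flaxseed arrays, which in turn were above all low-fat arrays. Gria3 rose with safflower by a log2 change of 0.47 (SE 0.08, 1.38-fold, limma adjusted p = 0.00379), from 9.23 ± 0.08 (SD, n = 4) to 9.69 ± 0.18 (SD, n = 5). The change was 0.29 (adjusted p = 0.0244) after quantile and 0.31 (adjusted p = 0.0238) after cyclic loess normalization. Without the fifth safflower array it was 0.39 (adjusted p = 0.0112), and with quantile normalization and without that array 0.23 (adjusted p = 0.0539).

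Cacng2 encodes stargazin, the transmembrane AMPA receptor regulatory protein that brings AMPA receptors to the cell surface and anchors them at synapses. Its signal was 9.93, 9.96, 9.79 and 9.98 on the low-fat arrays, 9.90, 10.02, 9.90 and 10.10 on the flaxseed arrays and 10.42, 10.37, 10.39, 10.20 and 10.30 on the safflower arrays. The safflower arrays lay above all others, while the flaxseed and low-fat arrays overlapped. Cacng2 rose with safflower by 0.42 (SE 0.07, 1.34-fold, limma adjusted p = 0.00379), from 9.91 ± 0.08 (SD, n = 4) to 10.34 ± 0.09 (SD, n = 5). The fifth safflower array was not the highest for this gene, and without it the change was 0.43 (adjusted p = 0.0112). After quantile normalization the change was 0.18 and did not pass (adjusted p = 0.119).

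Gria4, the gene of the AMPA subunit GluA4, read 9.49, 9.55, 9.71 and 9.72 with low-fat, 9.49, 9.80, 9.64 and 9.83 with flaxseed and 9.96, 9.85, 9.87, 9.98 and 9.89 with safflower. The safflower arrays lay close together, above every array of the other diets. Gria4 rose with safflower by 0.29 (SE 0.07, 1.22-fold, limma adjusted p = 0.00964), from 9.62 ± 0.11 (SD, n = 4) to 9.91 ± 0.06 (SD, n = 5). After quantile normalization the change was 0.11 (adjusted p = 0.302).

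Gria1, the gene of the AMPA subunit GluA1, read 9.57, 9.69, 9.59 and 9.52 with low-fat, 10.005, 9.77, 9.73 and 9.65 with flaxseed and 9.84, 9.80, 9.68, 9.81 and 9.96 with safflower. The third safflower array was below the second low-fat array, and the first flaxseed array was the highest of all. Gria1 rose with safflower by 0.23 (SE 0.08, 1.17-fold, limma adjusted p = 0.0275), from 9.59 ± 0.07 (SD, n = 4) to 9.82 ± 0.10 (SD, n = 5). The change was 0.04 after quantile normalization (adjusted p = 0.792), and 0.15 with a mean-variance trend and array weights (adjusted p = 0.0624). The call was also lost without low-fat array 1 or 4 or safflower array 1 or 5, at adjusted p from 0.0543 to 0.0696.

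Among the NMDA receptor genes, Grin1, which encodes the GluN1 subunit that all NMDA receptors need, read 9.92, 10.07, 9.68 and 9.69 with low-fat, 10.08, 9.95, 9.86 and 9.83 with flaxseed and 10.07, 10.09, 9.95, 10.02 and 10.27 with safflower. The low-fat arrays fell into a higher and a lower pair, and the second low-fat array lay within the safflower range. Grin1 rose with safflower by 0.24 (SE 0.09, 1.18-fold, limma adjusted p = 0.0441), from 9.84 ± 0.19 (SD, n = 4) to 10.08 ± 0.12 (SD, n = 5). Its call was lost when any of 8 single arrays was left out (low-fat arrays 1, 3 and 4, flaxseed arrays 2 and 3, and safflower arrays 1, 2 and 5), at adjusted p from 0.0527 to 0.126. Its change was 0.0041 after quantile normalization (adjusted p = 0.986) and 0.07 with trend and array weights (adjusted p = 0.439), and with the safflower and low-fat arrays fitted alone the adjusted p was 0.0599.

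Grin2a encodes GluN2A, the GluN2 subunit that becomes prominent at mature forebrain synapses. Its signal was 8.39, 8.36, 8.15 and 8.20 with low-fat, 8.15, 8.30, 8.36 and 8.38 with flaxseed and 8.57, 8.40, 8.57, 8.47 and 9.12 with safflower. The low-fat and flaxseed arrays covered the same range, and all safflower arrays were above it, the fifth by far the most. Grin2a rose with safflower by 0.35 (SE 0.12, 1.28-fold, limma adjusted p = 0.0299), from 8.27 ± 0.12 (SD, n = 4) to 8.63 ± 0.29 (SD, n = 5). Without the fifth safflower array the change was 0.23 and still passed (adjusted p = 0.0361), a size lower by more than a factor of 1.5. Without low-fat array 3 (0.31, adjusted p = 0.0691) or 4 (0.33, adjusted p = 0.0675) it did not pass.

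Grin2b encodes GluN2B, the GluN2 subunit of early development that persists in the adult forebrain. Its signal was 9.28, 9.61, 9.35 and 9.19 with low-fat, 9.49, 9.66, 9.54 and 9.51 with flaxseed and 9.48, 9.84, 9.24, 9.88 and 10.21 with safflower. The safflower arrays spread over nearly 1 log2 unit and took in both a value below most low-fat arrays and the highest value of the 13. The safflower minus low-fat change was 0.37 (SE 0.15, 95% confidence interval 0.05 to 0.69, limma adjusted p = 0.0597), from 9.36 ± 0.18 (SD, n = 4) to 9.73 ± 0.38 (SD, n = 5). Grin2b passed when low-fat array 2 (0.46, adjusted p = 0.0428), safflower array 1 (0.43, adjusted p = 0.048) or safflower array 3 (0.49, adjusted p = 0.0144) was left out, and its change was 0.25 without the fifth safflower array (adjusted p = 0.145) and 0.05 with trend and array weights.

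**Figure D1:**
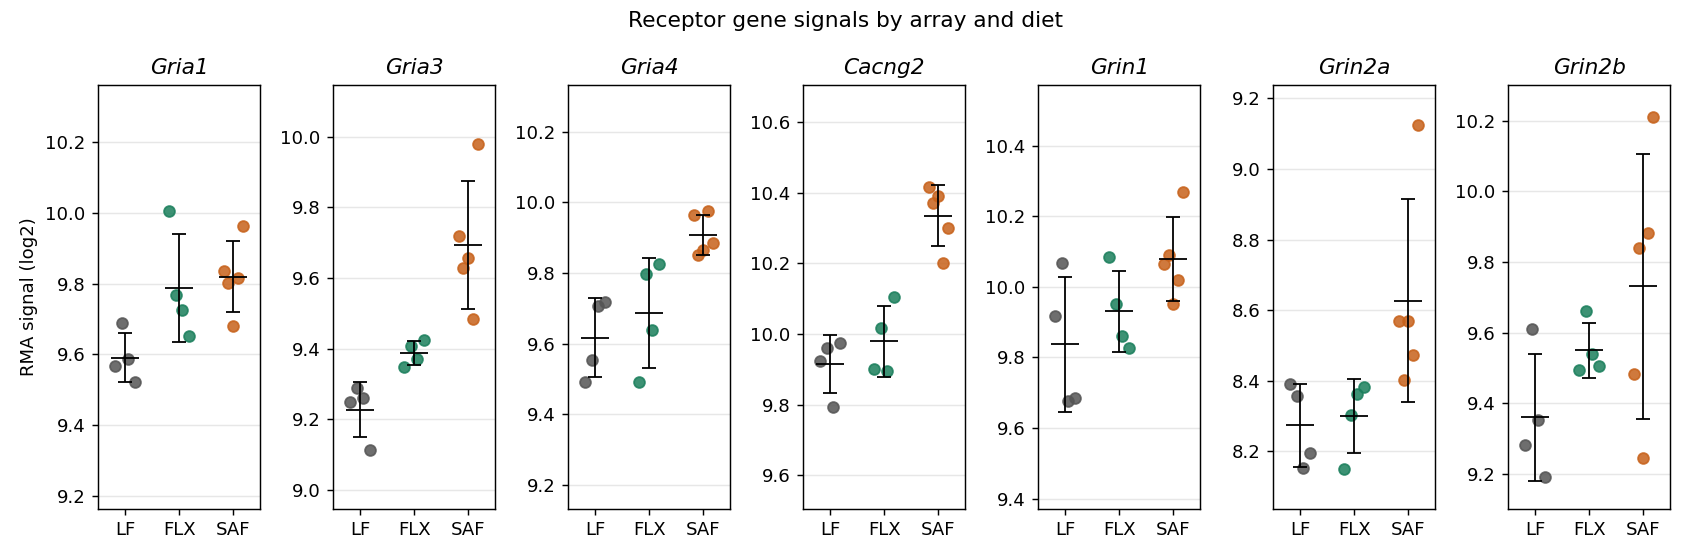
RMA signal (log2) of the 7 receptor genes on each array, by diet (LF low-fat soybean, n = 4; FLX high-fat flaxseed, n = 4; SAF high-fat safflower, n = 5); points are arrays, bars the mean and SD, and every panel spans the same height of log2 units. For Gria3, Gria4, Cacng2 and Grin2a all safflower points lie above all low-fat points.

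For 4 of the 7 genes (Gria3, Gria4, Cacng2 and Grin2a) the lowest safflower array exceeded the highest low-fat array, a separation that 13.5% of all tested genes showed. Shares of such separations among genes of similar signal were not computed, here or for the other comparisons. Relative to the mean of the low-fat arrays, the average shift over the 7 genes ran from -0.06 to 0.10 on the low-fat arrays, from 0.08 to 0.16 on the flaxseed arrays and from 0.22 to 0.56 on the safflower arrays. The fifth safflower array had the highest average shift, 0.56, and the highest single shift, 0.85 for Grin2b. On safflower array 3 the shift was -0.12 for Grin2b and 0.48 for Cacng2.

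**Figure D2:**
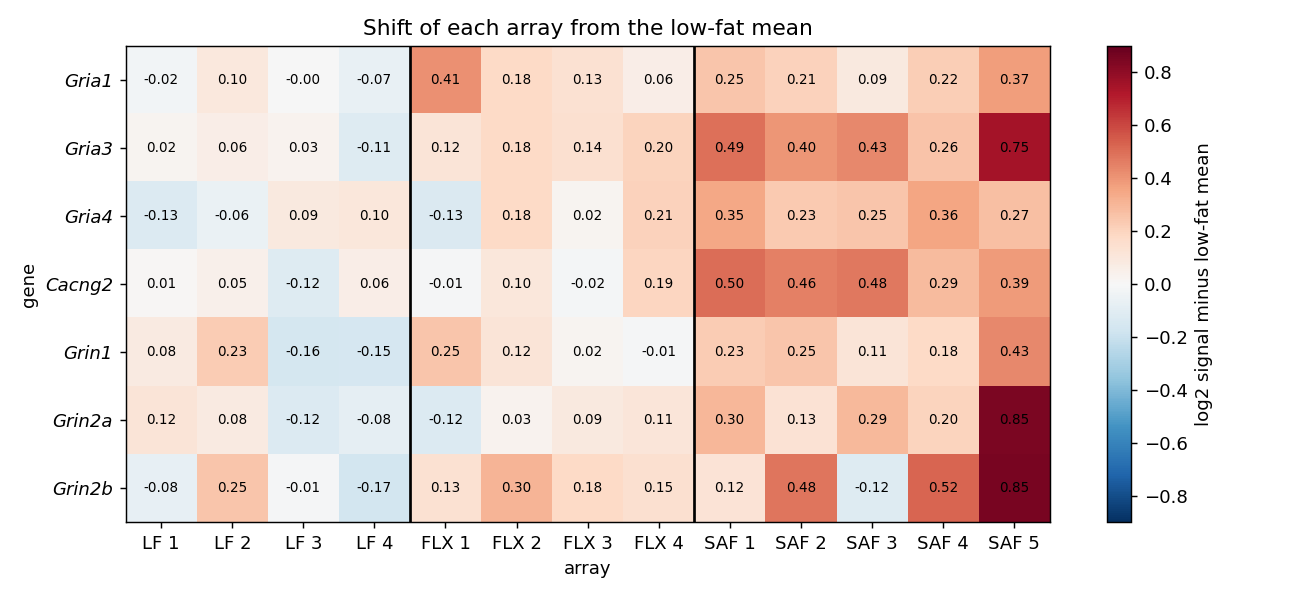
Log2 signal minus the low-fat mean of the same gene for each of the 7 genes (rows) on each of the 13 arrays (columns; LF low-fat, FLX flaxseed, SAF safflower; numbers are the shifts, red above and blue below 0). All shifts on the safflower arrays are above 0 except Grin2b on array 3, and safflower array 5 has the highest mean shift.

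The fifth safflower array was also the one that stood out in markers of cortex and hippocampus, regions other than the hypothalamus. Slc17a7, the vesicular glutamate transporter VGLUT1 of cortical neurons, read 10.13 on it and 7.44 to 7.95 on the other safflower arrays. Tbr1, a transcription factor of deep cortical layers, read 8.50 against 7.32 to 7.62, and Nrgn, the neuronal calmodulin-binding protein neurogranin, read 11.90 against 10.54 to 10.94. Emx1 (7.99 against 7.86 to 8.01) did not follow, and Neurod2 read 8.13 against 7.51 to 7.61. Of the 5 tested markers in the list, none rose with safflower over all arrays and Emx1 fell. Without this array 4 receptor genes passed (Gria3, Gria4, Cacng2 and Grin2a), as did 28.1% of all genes. With the third low-fat array left out too, the 3 that passed were Gria3 (0.41), Gria4 (0.33) and Cacng2 (0.39), at adjusted p of 0.00708, 0.0153 and 0.00708, and Grin2a did not (0.19, adjusted p = 0.0701). In that fit 32.7% of all genes passed.

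**Figure D3:**
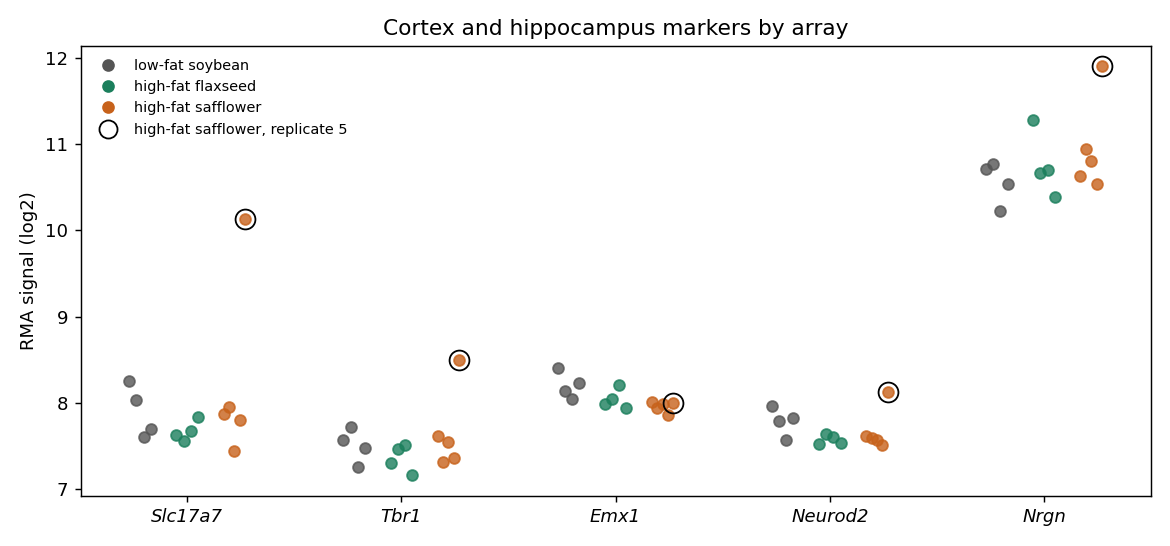
RMA signal (log2) of the 5 tested cortex and hippocampus markers on each array, coloured by diet, with safflower replicate 5 circled. It is the highest point for Slc17a7, Tbr1, Neurod2 and Nrgn and lies within the others for Emx1.

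Markers of other cell types are set beside the 22.9% of all tested genes that rose and the 16.9% that fell. The share that rose was higher among bright genes. In decile 10, the brightest by mean signal, it was 58.7%, with a median log2 change of 0.26. Of 10 general neuron markers, 8 rose with safflower and none fell (median log2 change 0.32), and their mean signal was 10.64 to 10.95 on the low-fat, 10.86 to 10.87 on the flaxseed and 10.90 to 11.27 on the safflower arrays. Of 5 markers of GABA neurons, 3 rose (Gad1, Gad2 and Slc32a1), and the others, Dlx1 and Dlx5, did not pass. Of the 5 log2 changes 4 were above 0, with a list median of 0.39. Their mean signals were 9.19 to 9.60, 9.38 to 9.60 and 9.45 to 9.92 in the same order of diets. Of the 13 hypothalamus markers, 2 fell (Agrp and Rax) and none rose, with a median of -0.06. For astrocytes 2 of 7 rose (list median 0.16), for oligodendrocytes and their precursors 1 of 9 (0.32) and for microglia 1 of 6 (0.06). For striatum 1 of 7 rose (0.10), for endothelium 0 of 5 (0.25) and for thalamus 0 of 7 (0.21). Of the tested skeletal muscle genes 4 of 5 fell, and of the tested pituitary genes 1 of 3. Their part in the receptor gene changes was not tested.

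Log2 changes with safflower ran with the signal level of a gene. The receptor genes are brightly measured: Gria1, Gria4, Cacng2 and Grin1 were in decile 10, the brightest of the tested genes by mean signal, Gria3 and Grin2b in decile 9 and Grin2a in decile 7. The median log2 change of all genes was 0.26 in decile 10, 0.21 in decile 9 and 0.12 in decile 7, and 58.7%, 43.8% and 25.6% of their genes rose. Within its own decile the log2 change of Gria1 was at percentile 37.8, that of Grin1 at 42.5 and that of Gria4 at 63.2, so these lay in the middle of genes of similar signal. Those of Grin2b (92.0), Cacng2 (94.3), Grin2a (95.01) and Gria3 (97.9) lay near the top. These percentiles describe the genes and are no test.

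After quantile normalization the medians of the same deciles were 0.03, 0.04 and 0.05, and the safflower changes of the receptor genes were 0.30 for Grin2a (adjusted p = 0.0881), 0.29 for Gria3, 0.19 for Grin2b, 0.18 for Cacng2, 0.11 for Gria4, 0.04 for Gria1 and 0.0041 for Grin1. Median centring moved the median change of all genes from 0.07 to 0.28. All 7 receptor genes then passed with log2 changes of 0.44 to 0.68, as did 60% of all genes, 98.3% of those higher. The medians of deciles 10, 9 and 7 were 0.47, 0.42 and 0.33 after median centring. Gria1 (0.44) and Grin1 (0.45) lay below the median of their decile, and the other receptor genes above theirs. No receptor gene had a negative safflower change after quantile, cyclic loess or median scaling. With the olfactory receptor median as a covariate no receptor gene and no other gene passed in limma (793 genes had an unadjusted p under 0.05), and Gria4 turned to -0.0035 while Cacng2 stood at 0.43 (SE 0.16). That covariate correlated at -0.94 with the grouping over the 9 safflower and low-fat arrays.

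**Figure D4:**
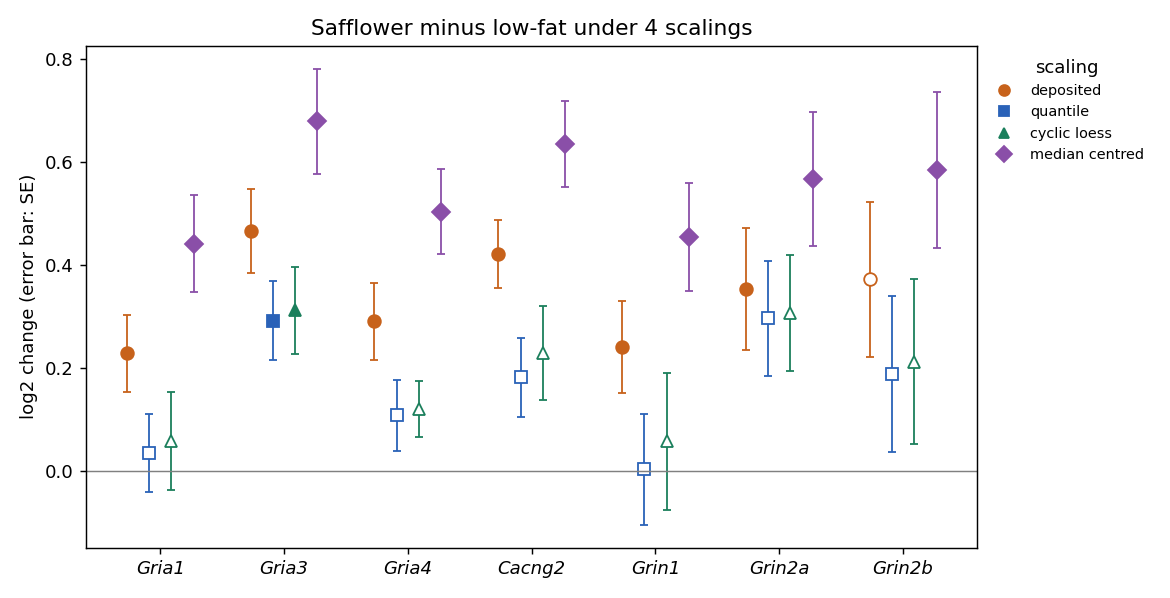
Safflower minus low-fat log2 change of each receptor gene with the deposited values and after quantile, cyclic loess and median scaling; error bars are the SE of the limma fit and filled symbols have an adjusted p under 0.05. Gria3 is filled under all 4 scalings, and Gria1 and Grin1 lie near 0 after quantile normalization.

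With the flaxseed diet no receptor gene passed against low-fat, and neither did any of the 16033 genes (0% called). At an unadjusted p under 0.05 the counts were 1 of the 7 receptor genes, Gria1, and 20.1% of all genes. All 7 log2 changes were positive, as were 62.3% of those of all genes. The 7 changes ran from 0.03 for Grin2a to 0.20 for Gria1, with a median of 0.09 against 0.05 over all genes. Flaxseed changes also ran with signal level. The median over all genes was 0.14 in decile 10, 0.11 in decile 9 and 0.07 in decile 7. Gria1, Gria3 and Grin2b were above the median of their decile, and Gria4, Cacng2, Grin1 and Grin2a were below it. Gria1 stood at 9.79 ± 0.15 (SD, n = 4) with flaxseed against 9.59 ± 0.07 (SD, n = 4) with low-fat (95% confidence interval of the difference 0.03 to 0.37, limma adjusted p = 0.22), and flaxseed array 4 was below low-fat array 2. Gria3 was the one gene whose flaxseed arrays all lay above all low-fat arrays (log2 change 0.16, 95% confidence interval -0.02 to 0.34, limma adjusted p = 0.29), a separation that 5.88% of all genes showed. After quantile or cyclic loess normalization 4 of the 7 flaxseed changes were negative (Gria4, Cacng2, Grin1 and Grin2a). With trend and array weights 1 of the 7, Gria4, passed with flaxseed (0.18, adjusted p = 0.042), as did 29.8% of all genes.

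Between safflower and flaxseed, which match in fat content, no receptor gene and no other gene passed (0% called). At an unadjusted p under 0.05 there were 4 of the 7 (Gria3, Gria4, Cacng2 and Grin2a), against 15.5% of all genes. All 7 differences were above 0, as were 50.8% of those of all genes. Differences between these diets also ran with signal level. The lower quartile over all genes was 0.04 in decile 10, 0.02 in decile 9 and -0.03 in decile 7. The medians were 0.11, 0.09 and 0.04, and Gria1 alone was below the median of its decile. For Gria3, Gria4, Cacng2 and Grin2a all safflower arrays lay above all flaxseed arrays. That separation was shown by 2.2% of all genes, and its share among genes of similar signal was not computed. Cacng2 had the largest difference, 0.36 (95% confidence interval 0.22 to 0.50, limma adjusted p = 0.246), and it passed when safflower array 4 was left out (0.39, adjusted p = 0.0464). With trend and array weights these 4 genes passed, as did 29.1% of all genes. The difference was 0.33 for Grin2a, 0.31 for Gria3 and 0.22 for Gria4. For Gria1 it was 0.03 (95% confidence interval -0.13 to 0.19, limma adjusted p = 0.839), for Grin1 0.15 and for Grin2b 0.18. Both comparisons with low-fat share its arrays.

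**Figure D5:**
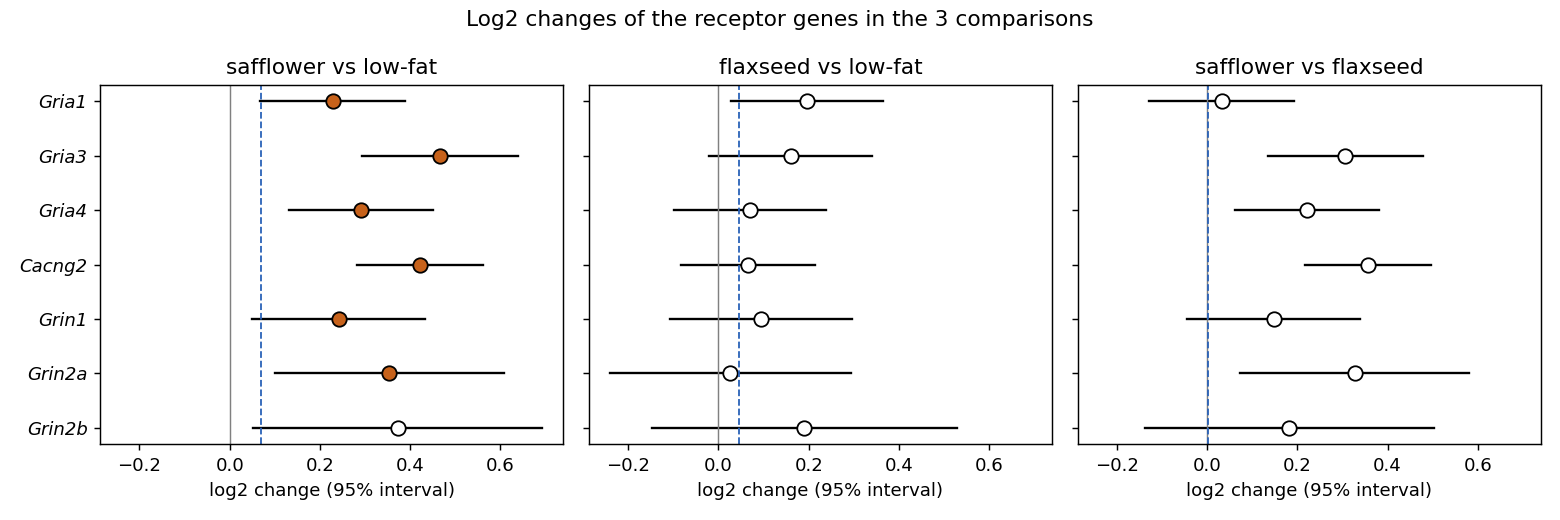
Log2 change (point) with its 95% confidence interval (line) for the 7 receptor genes in the 3 comparisons; filled points have a limma adjusted p under 0.05 and the dashed line is the median of all tested genes. Filled points are found in the safflower against low-fat panel alone, where 6 of 7 are filled.

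The receptor genes did not vary as 1 block. Over the 13 arrays the Pearson correlations of their 21 pairs ran from 0.21 to 0.88 with a median of 0.66. These are descriptions over arrays that share diet and scaling. When the diet means were removed the median fell to 0.21, with a range of -0.61 to 0.85. The closest pair was Gria3 and Grin2a (0.88 over the arrays, 0.85 within diets), followed within diets by Gria1 and Grin1 (0.80). Safflower array 5 was the highest of the 13 for both Gria3 and Grin2a, and their correlation without that array was not computed. Gria4 ran against Grin1 within diets (-0.61) and against Gria1 (-0.54). The difference Grin2a minus Grin2b within an array, which tracks the balance of GluN2 transcripts, was -1.09 ± 0.17 (SD, n = 4) with low-fat, -1.25 ± 0.12 (SD, n = 4) with flaxseed and -1.10 ± 0.33 (SD, n = 5) with safflower, with overlapping ranges in every pair of diets. The difference Grin2b minus Grin1 was -0.48 ± 0.13 (SD, n = 4) with low-fat, -0.38 ± 0.14 (SD, n = 4) with flaxseed and -0.35 ± 0.28 (SD, n = 5) with safflower, again overlapping.

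Genes among those whose signal followed each receptor gene most closely over the 13 arrays, out of 14727 named candidates, were found by Pearson correlation, as a description. Gria3 was followed by Rapgef2, an exchange factor for Rap proteins (0.97), and Pgm2l1 (0.97). Grin2a was followed by C1ql3, a secreted synaptic protein (0.97), and Atp2b2, a plasma membrane calcium pump (0.96), and Grin2b by Tenm2, a teneurin adhesion protein (0.94). Cacng2 was followed by Nmt2, an N-myristoyltransferase (0.96), and Synj1, the synaptic phosphoinositide phosphatase synaptojanin (0.96). Grin1 was followed by Sez6l2 (0.98) and Camsap1, a microtubule minus-end binding protein (0.97), Gria4 by Igip (0.98) and the autophagy protease Atg4c (0.96), and Gria1 by the splicing regulator Mbnl2 (0.95) and by Srr (0.95). The median correlation with all candidates was between -0.04 for Gria4 and 0.33 for Gria1. The arrays share diet and scaling, and safflower array 5 was the highest of the 13 for Gria3, Grin1, Grin2a and Grin2b. Correlations with these candidates were not computed without that array.

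Partner genes of glutamate synapses were followed in 7 lists with 88 tested genes. With safflower 28 rose and 3 fell, so 35.2% were called, against 39.8% of all genes in either direction, and their median log2 change was 0.18. With flaxseed, and between the high-fat diets, none passed. With trend and array weights 5 passed with flaxseed (4 higher and 1 lower), beside 4772 of all genes. Between the high-fat diets 24 then passed (20 higher and 4 lower), beside 4658 of all genes. Under quantile normalization 4 of the 88 passed (2 higher and 2 lower), against 2326 of all 16033 genes, and under cyclic loess 6 (4 higher and 2 lower), against 19.3% of all genes. The 14 partner genes named by rule were the 2 of smallest unadjusted p with safflower in each list, so that their passing in that comparison follows from the choice. By mean signal the 14 were in deciles 7 to 10, where 25.6% to 58.7% of all genes rose with safflower. Of the 14, Neto2 alone passed after quantile normalization, and Neto2 and Srr after cyclic loess. The 14 had flaxseed changes of 0.02 to 0.23, none past the threshold (limma adjusted p of at least 0.205). Their safflower minus flaxseed differences were 0.06 to 0.37, again none past it (limma adjusted p of at least 0.246). With trend and array weights Srr passed with flaxseed (0.17, limma adjusted p = 0.0266). Olfm1, Olfm3, Grin3a, Neto2, Dlg2, Adarb1, Glul and Slc38a1 then passed between the high-fat diets. Leaving out safflower array 4 brought the Neto2 difference between the high-fat diets to 0.47, which passed (adjusted p = 0.0494).

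Of the AMPA receptor auxiliary and biogenesis proteins 3 of 21 rose with safflower and 1 fell (median 0.16). Of all tested genes 22.9% rose and 16.9% fell. Olfm1 and Olfm3 encode secreted olfactomedin proteins of the AMPA receptor complex. Olfm1 rose by 0.44 (SE 0.13, limma adjusted p = 0.0188) and had changes of 0.08 with flaxseed and 0.36 for safflower minus flaxseed. Olfm3 rose by 0.34 (SE 0.10, adjusted p = 0.02), with 0.13 and 0.21. The third was Cacng3, a relative of stargazin (0.57, adjusted p = 0.03), and Shisa7 fell by 0.20 (adjusted p = 0.036); both were named after their values were seen, since the counts are small. The calls of Olfm1 and Olfm3 were lost without low-fat array 3, the array high in muscle genes (adjusted p = 0.0541 and 0.0531).

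Of the other NMDA receptor subunits and co-agonist enzymes 2 of 8 rose and 1 fell (median 0.09), beside 22.9% and 16.9% of all genes. Srr, the serine racemase that makes the co-agonist D-serine, rose by 0.29 (SE 0.07, limma adjusted p = 0.00674), with 0.23 for flaxseed and 0.06 for safflower minus flaxseed. Grin3a, the gene of the GluN3A subunit, rose by 0.32 (SE 0.08, adjusted p = 0.00878), with 0.02 and 0.30. Grin3b, also named after its value was seen, fell by 0.18 (adjusted p = 0.0473).

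Of the kainate and delta receptor genes and their partners 2 of 11 rose (median 0.16), beside 22.9% of all genes. Neto2, an auxiliary subunit of kainate receptors, had the highest change of the partner genes named by rule, 0.51 (SE 0.11, limma adjusted p = 0.00573), with 0.13 for flaxseed and 0.37 for safflower minus flaxseed. Grid1, a delta receptor gene, rose by 0.27 (adjusted p = 0.015), with 0.18 and 0.08. Of the metabotropic receptors 3 of 6 rose (median 0.27): Grm7 by 0.29 (adjusted p = 0.0235), with 0.17 and 0.12, Grm5 by 0.28 (adjusted p = 0.0299), with 0.15 and 0.13, and Grm3, named after its value was seen, by 0.47 (adjusted p = 0.0334). The Grm7 call was lost without low-fat array 1 or 4 (adjusted p = 0.0771 and 0.0567), and the Grm5 call without low-fat array 1 or 4 or safflower array 4 or 5 (adjusted p from 0.0514 to 0.0942). With trend and array weights the changes of Grm7 (0.10) and Grm5 (0.12) did not pass.

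Of the postsynaptic scaffolds and kinases 10 of 28 rose and 1, Homer3, fell (median 0.22), beside 22.9% and 16.9% of all genes. Camk2d, a subunit of calcium/calmodulin-dependent kinase II, rose by 0.39 (SE 0.08, limma adjusted p = 0.00404), with 0.22 for flaxseed and 0.17 for safflower minus flaxseed. Dlg2, the scaffold PSD-93, rose by 0.39 (SE 0.08, adjusted p = 0.00489), with 0.17 and 0.22. Both enzymes that edit glutamate receptor transcripts by adenosine deamination rose: Adarb1 by 0.34 (adjusted p = 0.0169), with 0.06 and 0.27, and Adar by 0.20 (adjusted p = 0.023), with 0.07 and 0.13. The third gene of that list, Adarb2, did not pass. The Adar call was lost without low-fat array 3 or 4 or safflower array 1 or 5 (adjusted p from 0.0516 to 0.0585). Of the genes of glutamate supply and uptake 6 of 11 rose (median 0.30). Glul, the glutamine synthetase of astrocytes, rose by 0.35 (SE 0.08, adjusted p = 0.00505), with 0.16 and 0.19 (0.20 and adjusted p = 0.0529 for the mean of all its rows), and Slc38a1, a neuronal glutamine transporter, by 0.28 (adjusted p = 0.00681), with 0.12 and 0.16. The astrocyte glutamate transporter genes Slc1a2 and Slc1a3, which are also in the astrocyte marker list, were among the 6.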

How the data were processed

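Hypothalamic RNA of 13 arrays (4 low-fat, 4 flaxseed, 5 safflower) was amplified and labelled by the GeneChip WT PLUS protocol (100 ng of input), per the labels' protocols. The authors deposited log2 signals for 70580 rows. RMA, Affymetrix Expression Console and the Transcriptome Analysis Console are the tools listed, without versions, per the submitters' processing notes. No source used here names the genome build of the rows, so no position is printed for them. The number of arrays limits the precision.

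Rows annotated with exactly 1 symbol (23446) were used as genes. Where a gene had several rows, the one with the highest mean was taken. The gene IDs of 22077 rows were matched to GRCr8, which changed 1 symbol. The deposited values were not normalized again. Diet means were fitted to all tested genes in a single model (lmFit followed by eBayes, from limma 3.58.1 under R 4.3.3; 10 residual degrees of freedom), with Benjamini-Hochberg adjustment over 16033 genes, a threshold of 0.05 and two-sided tests. The fit was tested on simulated data. The members and lists were chosen with earlier results of these data known. Named genes were all receptor genes, the 2 partners of smallest unadjusted p with safflower in each list, and the 2 most correlated genes of each receptor gene, of which 1 is not reported here. Of 5 planned within-array differences, 3 needed Gria2 and were not computed. No 2 arrays held identical values. Alternatives were other scalings, filters, covariates, weights and samples.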

Additional observations from a re-analysis of the deposited data

Results flagged for a closer look

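Of the 27 groups of arrays examined (7 genes and 2 within-array differences in each of 3 diets), 2 held a value far from the others. About 1 in 20 such groups is marked by chance. Grin2a on safflower array 5 stood at 9.12, while the other safflower arrays lay between 8.40 and 8.57. The same array was the highest of the 13 for Gria3, Grin1 and Grin2b and for 4 of the 5 tested cortex and hippocampus markers, and the part of those markers in the Grin2a value was not tested. The difference Grin2b minus Grin1 was -0.59 on flaxseed array 1 against -0.32 to -0.29 on the other flaxseed arrays. That array had the highest Grin1 signal (10.08) and the lowest Grin2b signal (9.49) of the flaxseed group.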

How the results depend on the processing

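For safflower against low-fat the count of receptor genes past the threshold was 6 with the deposited values. It was 1 under quantile and under cyclic loess normalization, and 0 with the olfactory receptor median as a covariate. The count was 3 with the replicate block, beside 4652 of all genes, and 4 with trend and array weights, beside 8996 of all genes. When single arrays were left out it was 3 to 7, and without low-fat array 4 it was 3, beside 36.6% of all genes. A pair of alternatives was chosen after seeing the data. Without low-fat array 3 and safflower array 5 the count was 3, beside 32.7% of all genes. With quantile normalization and without safflower array 5 it was 0. All genes past the threshold numbered 6377 (57.6% higher), 2326 under quantile (69.9% higher), 3099 under cyclic loess (68.0% higher), 9620 after median centring (98.3% higher), 10003 without a filter (39.1% higher), 3379 with a stricter filter (89.8% higher; fewer genes tested), 949 with quantile normalization and without safflower array 5, 0 with the olfactory covariate in limma (793 at an unadjusted p under 0.05), and 4512 to 6814 without single arrays. With trend and array weights 1 receptor gene (Gria4, 0.18, adjusted p = 0.042) and 4772 genes passed for flaxseed against low-fat, and 4 receptor genes and 4658 genes for safflower against flaxseed. Without a filter 1 gene passed for flaxseed. Without single arrays 0 to 1 receptor genes and 0 to 90 genes passed for safflower against flaxseed (3 genes without flaxseed array 4, 90 without safflower array 4). Gria3 and Cacng2 passed for safflower without each single array, as did Gria4 (adjusted p up to 0.0329). The cause of these differences was not tested.

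Replicate numbers were not taken to pair the arrays, because same-numbered arrays of different diets did not deviate together in every pair: the correlations ran from -0.26 to 0.43, above 0.1 in 7 of 12 pairs (all those of numbers 1 and 4), and 4 of 12 arrays correlated best with their own number. The block takes up safflower array 5, the one array numbered 5. It left Gria3, Gria4 and Cacng2 past the threshold, with 29% of all genes, while Gria1, Grin1 and Grin2a had adjusted p of 0.0665, 0.058 and 0.0558.

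Some changes turned sign. For flaxseed against low-fat under quantile normalization they were Gria4 (-0.048), Cacng2 (-0.11), Grin1 (-0.074), Grin2a (-0.0011), Olfm1 (-0.11), Grin3a (-0.036), Dlg2 (-0.0084), Adarb1 (-0.044), Adar (-0.048) and Slc38a1 (-0.061), and without safflower array 5 as well Gria4 (-0.048), Cacng2 (-0.11), Grin1 (-0.074), Grin2a (-0.0012), Olfm1 (-0.11), Grin3a (-0.035), Dlg2 (-0.0085), Adarb1 (-0.044), Adar (-0.048) and Slc38a1 (-0.062). Under cyclic loess they were Gria4 (-0.074), Cacng2 (-0.11), Grin1 (-0.068), Grin2a (-0.0024), Olfm1 (-0.099), Grin3a (-0.030), Dlg2 (-0.022), Adarb1 (-0.045), Adar (-0.053), Glul (-0.21) and Slc38a1 (-0.056). With trend and array weights they were Grin1 (-0.049), Grin2a (-0.012), Olfm1 (-0.11), Grin3a (-0.047) and Adarb1 (-0.00028), and with the olfactory covariate Gria4 (-0.10), Grin2a (-0.029) and Grin3a (-0.020). Without low-fat array 3 and safflower array 5 they were Grin2a (-0.014) and Olfm1 (-0.026). Over single arrays left out, Grin2a ran from -0.014 to 0.076, Grin3a from -0.021 to 0.080, Olfm1 from -0.026 to 0.16 and Adarb1 from -0.038 to 0.16. For safflower against flaxseed they were Gria1 (-0.037) under quantile normalization, Gria1 (-0.060), Srr (-0.014) and Grid1 (-0.014) without safflower array 5 as well, Gria1 (-0.0039) with the replicate block, Gria1 (-0.0039) without low-fat array 3 and safflower array 5, and Grin2b (-0.060) with trend and array weights, and Gria1 ran from -0.013 to 0.10 without single arrays. For safflower against low-fat they were Gria4 (-0.0035) with the olfactory covariate and Grin1 (-0.030) and Adar (-0.00083) with quantile normalization and without safflower array 5.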
